A study of Mus musculus with 3 samples.

Results

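The genes described here encode 44 enzymes of central carbon and glutamate metabolism. They were chosen by function from a written list of symbols, with earlier results of these data known. Of them, 44 of 44 were found among the 32531 gene symbols counted in each library. The list holds 17 genes of glycolysis and lactate formation, 8 of the pyruvate dehydrogenase complex and its kinases, 10 of the tricarboxylic acid (TCA) cycle, 4 of the malate-aspartate shuttle, 3 of anaplerosis and glutamate-glutamine conversion, and 2 creatine kinases. The measurements are of ribosome-bound RNA from the whole cerebral cortex of adult mice. All libraries came from the Htr3a-Cre driver line NO176 crossed to the Cre-dependent reporter Rosa26-LSL-EGFP/Rpl10a, in which EGFP is fused to a protein of the large ribosomal subunit. Antibodies to EGFP captured tagged ribosomes with their RNA, a method called translating ribosome affinity purification (TRAP). There was 1 group, of 3 immunopurified libraries named replicates 1, 2 and 3.

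Because the reporter is switched on by Cre and stays on, tagged cells are all those in which the driver was active at any stage, including before adulthood. The labels do not state whether each library was made from a separate animal, so every p-value below measures the spread between these libraries only, which may be technical. Unpurified cortex RNA was not analysed here, and levels are therefore described within the purified RNA with no statement on enrichment. In such bulk RNA, a gene carried by fewer cells and a gene with less RNA per cell cannot be told apart.

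Glycolysis splits glucose into pyruvate, which is either reduced to lactate in the cytosol or converted to acetyl-CoA by pyruvate dehydrogenase in mitochondria and oxidised in the TCA cycle. The malate-aspartate shuttle carries reducing equivalents of glycolysis into mitochondria, and in neurons it shares its aminotransferases with the making of aspartate and glutamate. In GABAergic interneurons glutamate is also the precursor of the transmitter, while in cortex glutamine is made from glutamate mainly in astrocytes.

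Replicate 1 had 14383545 counts on genes, replicate 2 had 13951332 and replicate 3 had 14461053, and 3 counts, the limit that a count of 0 allows, correspond to 0.209, 0.215 and 0.207 counts on the scale of CPM, which sets every library to the same total. All 6 GABAergic markers examined were at or above 100 TPM, a level corrected for gene length and library total, in 3 of 3 libraries, and the driver gene Htr3a stood at 602 ± 46.1 TPM (SD, n = 3, as for every ± below). RNA of genes used as markers of other cells was present too, and whether it came from tagged cells was not tested. Markers of excitatory neurons summed to 3341 to 3719 TPM over 9 genes, of astrocytes to 474 to 559 TPM over 11 genes, of oligodendrocytes to 286 to 483 TPM over 10 genes, of microglia to 19.96 to 30.8 TPM over 7 genes and of endothelium to 4.62 to 7.93 TPM over 7 genes. Single genes carried much of these sums, Camk2a with 2317 to 2885 TPM among the excitatory and Slc1a2 with 342 to 420.2 TPM among the astrocyte markers, whose list medians were 86.3 to 102 and 12.2 to 13.3 TPM. Sst, a marker of interneurons of another class than the Htr3a class, reached 8250 ± 552 TPM. Its length is only 721 bases, and its mean was 1175 CPM, against 2551 CPM for Gad2. Of the 5 markers of that class examined, 1 was at or above 100 TPM in 3 of 3 libraries. Pvalb had a mean of 88.1, Lhx6 of 83.0, Satb1 of 66.7 and Sox6 of 16.2 TPM. Replicate 1 differed from the mean of the other libraries by an amount that moved with transcript length, as described with the last results. Replicates 2 and 3 were not examined in this way.

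Promoters of the lactate dehydrogenase pair and of Pgk1 are shown because the pair divides the last step of glycolysis and Pgk1 is a textbook target of the hypoxia-inducible factor. They come from RefSeq on GRCm38.p6 and are written 5′ to 3′ on the gene's strand. Each window runs from 250 bases before to 50 bases after the RefSeq start nearest to that of the gene's principal transcript. The Ldha window lies inside the gene, whose annotated span begins at 46841475 on the plus strand. Capitals mark ACGTG, a form of the core of hypoxia response elements, and the motif of nuclear respiratory factor NRF1. The latter was searched as GCGCA followed by any base and GCGC, and each motif on either strand. Other forms of the hypoxia core, such as GCGTG, were not searched. The motifs do not overlap each other in these windows.
Ldhb, chr6:142507908-142508207, minus strand: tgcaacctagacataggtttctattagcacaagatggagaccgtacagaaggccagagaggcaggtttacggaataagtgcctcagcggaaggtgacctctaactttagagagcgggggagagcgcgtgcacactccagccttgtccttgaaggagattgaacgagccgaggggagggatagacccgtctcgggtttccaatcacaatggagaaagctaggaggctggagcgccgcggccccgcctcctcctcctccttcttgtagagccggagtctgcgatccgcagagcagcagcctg
Ldha, chr7:46846832-46847131, plus strand: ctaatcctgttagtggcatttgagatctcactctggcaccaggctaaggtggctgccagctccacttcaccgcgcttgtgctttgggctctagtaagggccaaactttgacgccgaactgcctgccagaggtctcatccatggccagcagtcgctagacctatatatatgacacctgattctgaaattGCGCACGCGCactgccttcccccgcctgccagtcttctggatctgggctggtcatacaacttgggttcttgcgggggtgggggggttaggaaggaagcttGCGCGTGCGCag
Pgk1, chrX:106186850-106187149, plus strand: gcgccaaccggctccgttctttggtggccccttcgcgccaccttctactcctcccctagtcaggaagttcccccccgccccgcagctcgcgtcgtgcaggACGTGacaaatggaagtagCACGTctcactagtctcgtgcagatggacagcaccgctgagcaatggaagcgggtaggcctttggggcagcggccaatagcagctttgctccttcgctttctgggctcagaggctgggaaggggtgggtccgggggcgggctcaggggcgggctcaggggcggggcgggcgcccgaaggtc
The Ldhb window held neither motif, the Ldha window held the NRF1 motif at 2 places and the Pgk1 window held ACGTG at 2 places. Of the 44 genes, 43 had a promoter entry (all but Idh3a). ACGTG occurred in 14 of these 43 (32.6%), against 19.7% of 27025 promoters of the same length, the first listed for each gene. The enzymes' windows were instead those nearest the principal transcript start, so these shares rest on unlike choices of promoter. The 14 were Hk2, Pfkm, Aldoa, Aldoc, Gapdh, Pgk1, Pgam1, Pdhb, Pdk2, Pdk3, Idh3g, Ogdh, Mdh1 and Pcx. The NRF1 motif occurred in 5 of 43 (11.6%), which were Pgam1, Eno1, Ldha, Dld and Sucla2, against 4.78% of the first listed promoters. CACGTG, which contains ACGTG on both strands, was found in Pdk2 and Pcx (4.65%, against 7.24% of the first listed promoters). The TATA sequence TATAAA was found in 3 of 43 (6.98%, against 14.2%). These matches are descriptions of the letters in the windows, not evidence of binding.

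The enzymes were among the abundant messages of the purified RNA. At least 1 TPM in 3 of 3 libraries was reached by 42 of 44, at least 100 TPM by 27 and at least 1000 TPM by 4, namely Gapdh, Aldoa, Ldhb and Got1. Of all 23890 genes with a length, 12158 reached 1 TPM and 7.41% reached 100 TPM in 3 of 3 libraries. Among those 12158 genes, 14.6% reached 100 TPM. The share of all genes at 1000 TPM was not computed. The median of the 44 was 167, 202 and 200.3 TPM in replicates 1, 2 and 3, and their median position was the 96.2 percentile of genes with a length. Together they took 0.986%, 1.12% and 1.10% of all gene counts, lowest in replicate 1. The 2 genes under 1 TPM in some library were Hk2 and Pdk4.

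**Figure D1:**
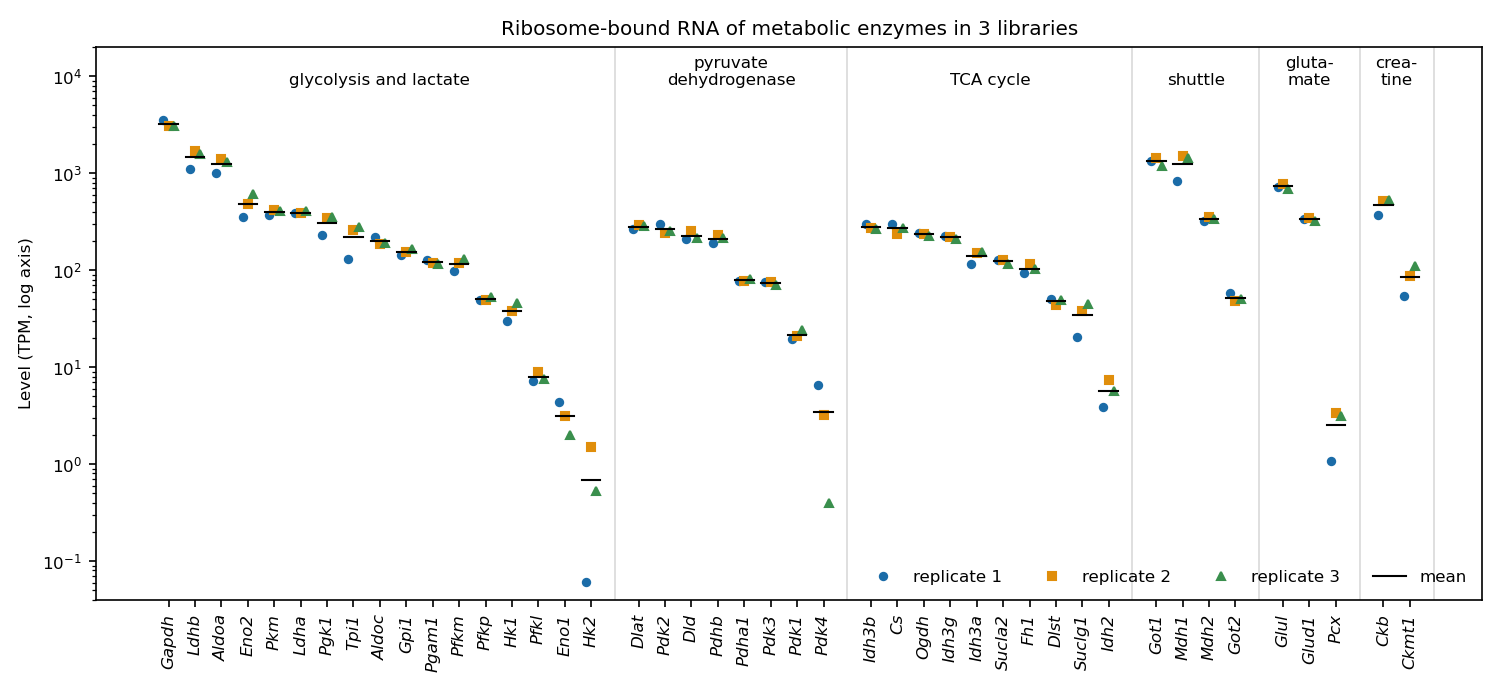
Level of each of the 44 enzyme genes in TPM (log axis) in replicates 1, 2 and 3 (points) with their mean (line), grouped by pathway and ordered by mean within a group. Gapdh stands highest at 3240 TPM and Hk2 lowest at 0.690 TPM, and the libraries lie close together for most genes, with wide gaps for Hk2, Pdk4 and Pcx.

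Glycolysis was uneven along its steps, with little hexokinase RNA at the entry and a peak at glyceraldehyde phosphate dehydrogenase. Hk1, the main hexokinase of brain, which phosphorylates glucose, stood at 30.0, 38.3 and 45.4 TPM in replicates 1, 2 and 3. Hk2, the insulin-responsive hexokinase of muscle and fat, had 1, 25 and 9 counts, or 0.0608, 1.49 and 0.522 TPM. Hk1 thus held 98.3% ± 1.84 of the summed TPM of Hk1 and Hk2, and its values lay above those of Hk2 in each library. Hk2 was under a mean of 1 CPM and was not tested. Gpi1, glucose phosphate isomerase, stood at 145, 155 and 165 TPM, above the whole range of Hk1.

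Phosphofructokinase, the committed and most regulated step, was carried by the muscle-type Pfkm and the platelet-type Pfkp, with little liver-type Pfkl. Pfkm stood at 99.1, 118 and 131 TPM, Pfkp at 49.8, 49.6 and 52.4 TPM and Pfkl at 7.18, 8.84 and 7.57 TPM in replicates 1, 2 and 3. Each gene pair was compared by the difference of log2(TPM + 0.1) within a library, fitted with limma across all genes that pass a mean of 1 CPM with Benjamini-Hochberg adjustment over all of them and a threshold of 0.05. Pfkm was above Pfkl by 3.87 (SD 0.20; limma, adjusted p = 5.89e-09, and 0.00645 without pooling the spread over genes), while other lengths, or none, gave 2.86 to 3.24. Pfkp was above Pfkl by 2.68 (SD 0.17; limma, adjusted p = 1.18e-07, and 0.00688 without pooling), while other lengths, or none, gave 2.47 to 3.68. Pfkm was above Pfkp by 1.19 (SD 0.17; limma, adjusted p = 0.000663), but this order rested on gene length. It turned to -0.29 with the principal transcript as length, to -0.80 with the coding length and to -0.81 with no length correction. The Pfkm share of phosphofructokinase was accordingly 66.4% ± 2.62 with merged exons and 43.0% ± 2.89 with principal transcripts. The merged exons of Pfkp span 13401 bases, its principal transcript 4145.

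A called pair says little by itself here. Of all comparisons of a gene with these partner genes across the table, 88.6% were called, beside 23 of the 24 enzyme pairs tested (95.8%). The size of a difference and its stability are therefore given. All 24 pairs had the same sign in 3 of 3 libraries, and 22 were called without replicate 1, beside 89.6% of all such comparisons. How often signs agree over all genes was not computed. Very small adjusted p-values arise where limma pools the spread over all genes, and the value without pooling is given beside the smallest of them and wherever it ends a call.

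Aldolase, which splits fructose bisphosphate, was mostly Aldoa. This form stood at 1009, 1391 and 1315 TPM in replicates 1, 2 and 3. Aldoc, a brain isozyme that in cortex is best known from astrocytes, stood at 219.9, 186 and 191 TPM. Aldoa exceeded Aldoc by 2.63 on the log2 scale (SD 0.38; limma, adjusted p = 0.000139), by 3.35 with the principal transcript, and held 85.9% ± 3.30 of aldolase TPM. Replicate 1 had the lowest Aldoa and the highest Aldoc. In the same libraries all 11 astrocyte markers were at 1 TPM or more, with medians of 13.3, 12.7 and 12.2 TPM and none at 0, and the part of astrocyte RNA in the Aldoc level was not tested.

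Triose phosphates pass through Tpi1, which interconverts them, and Gapdh, which oxidises one to bisphosphoglycerate. Tpi1 stood at 129.7, 258 and 277 TPM, with replicate 1 far below the others. Gapdh, on chromosome 6 from 125161715 to 125166467 (minus strand), was the highest of the 44 at 3573, 3085 and 3063 TPM and ranked 19 among all genes with a length. Of its principal transcript, 88.0% has near-identical copies in 41 other annotated genes, at least 98% identical over 100 bases or more, so reads lost to or gained from copies leave its level uncertain. Of these copies, the 2 listed in the files had together at most 7 counts in a library.

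Below Gapdh, the ATP-forming kinase Pgk1 stood at 231, 343 and 351 TPM, and phosphoglycerate mutase Pgam1 at 126, 119 and 115 TPM. Pgk1 was lowest in replicate 1, while Pgam1 varied little. Pkm, pyruvate kinase, which makes pyruvate and ATP, stood at 373, 418 and 412 TPM. Near-identical copies cover 68.8% of the principal transcript of Pgk1, 43.1% of that of Pgam1 and 65.5% of that of Pkm, and 45.5% of that of Gpi1.

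Enolase was almost wholly the neuronal form Eno2. Eno2 stood at 354, 482 and 610.1 TPM in replicates 1, 2 and 3. Eno1, the ubiquitous form, stood at 4.38, 3.11 and 1.995 TPM, from 65, 47 and 31 counts. The order of the libraries was opposite for the 2 genes, and the difference ran from 6.30 to 8.19 on the log2 scale with a mean of 7.24 (SD 0.94; limma, adjusted p = 1.73e-59, and 0.0208 without pooling). It was 6.60 with the principal transcript. In the sum of Eno2 and Eno1, the share of Eno2 was 99.3% ± 0.455. That sum leaves out Eno3, at 9.55 ± 3.46 TPM, and Eno4, at 4.11 ± 1.59 TPM. Both of these means lay above that of Eno1, at 3.16 TPM. The Eno1 level is uncertain, since 85.6% of its principal transcript has near-identical copies in Gm4735 and Eno1b, and reads with no unique alignment were 11.2% to 13.1% of the records of a library and belonged to no gene.

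**Figure D2:**
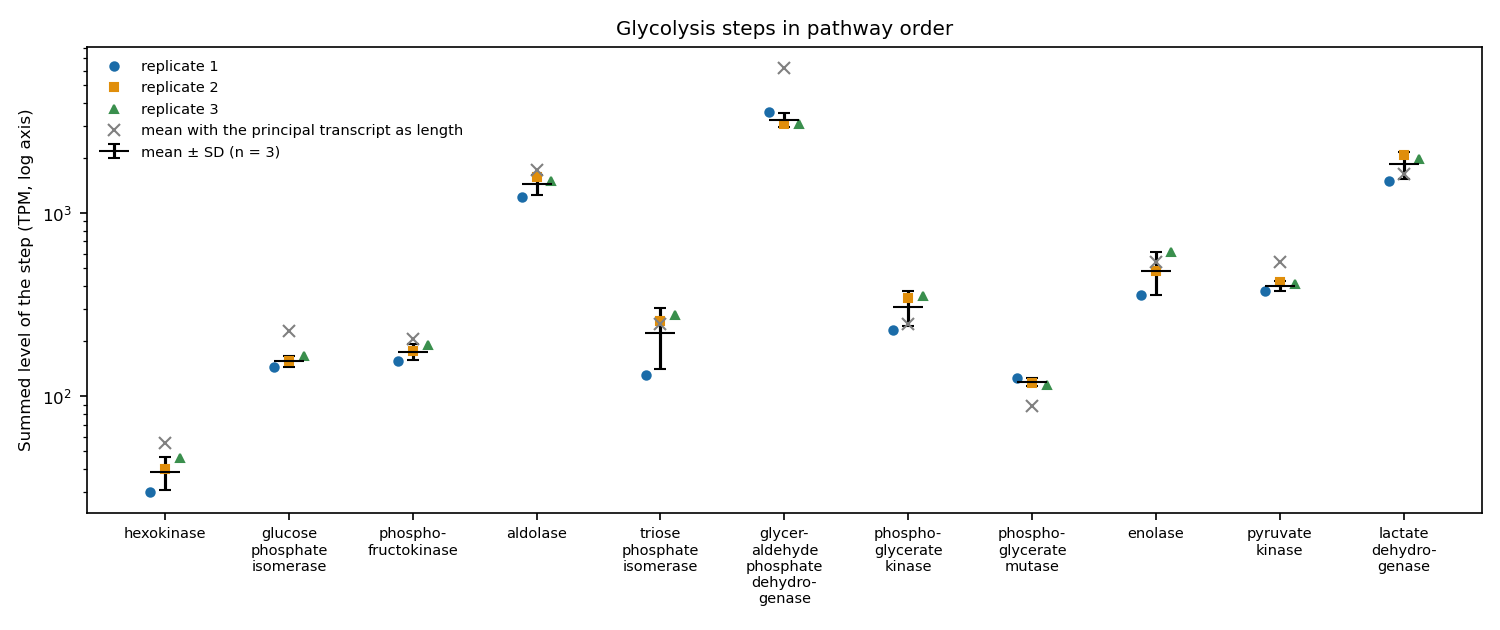
Summed TPM (log axis) of the isozymes among the 44 genes for each glycolysis step, in pathway order. Replicates 1, 2 and 3 are shown as points, mean ± SD (n = 3) as bars and the mean with the principal transcript as length as crosses. Hexokinase (38.6 TPM) is lowest and glyceraldehyde phosphate dehydrogenase (3240 TPM) highest with both lengths.

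Summed over the isozymes among the 44 genes, the steps spanned from hexokinase at 38.6 ± 7.99 TPM to glyceraldehyde phosphate dehydrogenase at 3240 ± 288 TPM. Lactate dehydrogenase (1846 ± 305 TPM) and aldolase (1437 ± 184 TPM) followed Gapdh, and their libraries overlapped. Enolase (485 ± 127 TPM) and pyruvate kinase (401 ± 24.5 TPM) also overlapped, as did Pgk1 (308 ± 67.5 TPM) and Tpi1 (222 ± 80.2 TPM), Tpi1 and phosphofructokinase (175 ± 17.7 TPM), and phosphofructokinase and Gpi1 (155 ± 10.3 TPM). No overlap was seen between glyceraldehyde phosphate dehydrogenase and lactate dehydrogenase, aldolase and enolase, pyruvate kinase and Pgk1, Gpi1 and Pgam1 (119.9 ± 5.70 TPM), or Pgam1 and hexokinase. The first and last places were the same with merged exon, principal transcript and coding lengths, while places between them shifted.

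Lactate dehydrogenase interconverts pyruvate and lactate, and its B subunit is classically tied to lactate use and its A subunit to lactate production. Ldhb, on chromosome 6 from 142490249 to 142507957 (minus strand), stood at 1115, 1689 and 1559.5 TPM in replicates 1, 2 and 3. Ldha, on chromosome 7 from 46841475 to 46855627 (plus strand), stood at 384, 385 and 405 TPM. Every Ldhb value lay above every Ldha value, and the gap was smallest in replicate 1. Ldhb exceeded Ldha by 1.87 on the log2 scale (SD 0.31; limma, adjusted p = 0.000129), or 3.66-fold, and by 1.23 with the principal transcript and 0.80 with no length correction. Ldhb held 78.4% ± 3.64 of lactate dehydrogenase TPM. A copy, Gm5514, matches 76.8% of the Ldhb principal transcript, and Ldha has no such copy.

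**Figure D3:**
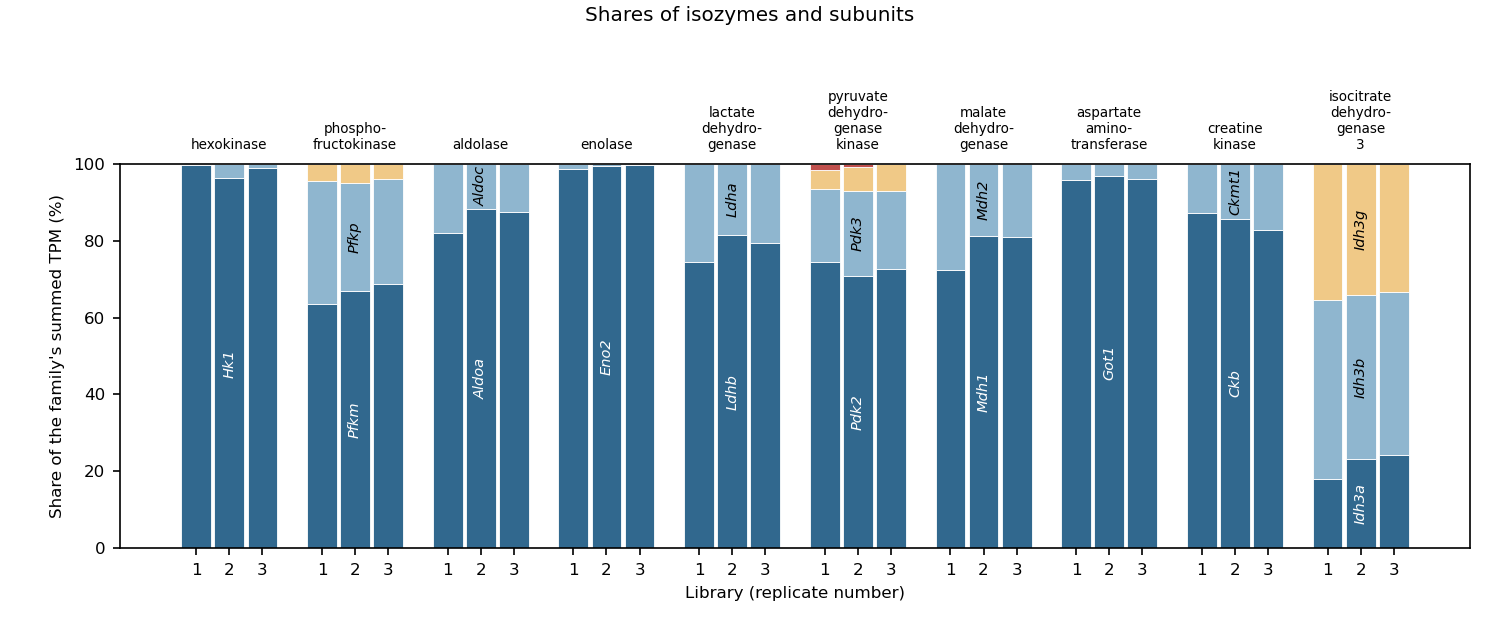
Share (%) of each isozyme or subunit in replicates 1, 2 and 3, computed with merged exon lengths. The whole is the summed TPM of the family's genes among the 44. Unlabelled top segments are Hk2, Pfkl, Eno1, Pdk1 with Pdk4 above it, and Got2. A single gene holds over 70% of the mean share in 8 of the 10 families, the exceptions being phosphofructokinase and isocitrate dehydrogenase 3. This count rests on the length used. The Mdh1 share was 64.0% with principal transcripts, and the Ldhb share was 65.1% with coding lengths.

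The pyruvate dehydrogenase complex commits pyruvate to oxidation through 3 catalytic components, and its messages were present at unequal levels. Pdha1, the E1 alpha subunit, stood at 77.6, 77.8 and 80.6 TPM, and Pdhb, the E1 beta subunit, at 190.3, 232 and 213 TPM in replicates 1, 2 and 3. Dlat, the E2 acetyltransferase, stood at 266, 295 and 283 TPM. Dld, the E3 component shared with the oxoglutarate dehydrogenase complex, stood at 208, 251 and 216 TPM. The alpha subunit was thus the lowest of the 4 in each library.

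Pdha1 differed from Pdhb by -1.42 on the log2 scale (SD 0.14; limma, adjusted p = 7.16e-05), or -2.38 with the principal transcript. It differed from Dlat by -1.84 (SD 0.08; limma, adjusted p = 3.52e-05). Dld and Dlat differed by -0.32 (SD 0.08), the one tested pair that was not called (limma, adjusted p = 0.0588). It was called with the coding length, with no length correction, with a filter of 10 CPM and without pooling. Exons of Map3k15 overlap 16.1% of the Pdha1 exons.

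The complex is switched off by 4 kinases, and Pdk2 was the leading kinase message. Pdk2 stood at 298, 243 and 254 TPM in replicates 1, 2 and 3, Pdk3 at 75.9, 75.9 and 71.0 TPM and Pdk1, known as a hypoxia-induced form, at 19.6, 20.7 and 24.0 TPM. The libraries of these 3 genes did not overlap. Pdk2 held 72.7% ± 1.78 of the kinase TPM, Pdk3 20.5% ± 1.58 and Pdk1 5.94% ± 0.982. Pdk2 was above Pdk1 by 3.62 (SD 0.27; limma, adjusted p = 3.54e-06). This was 2.42 with the coding length. Pdk3 was above Pdk1 by 1.79 (SD 0.20; limma, adjusted p = 5.25e-05), a call lost with the coding length (0.26; limma, adjusted p = 0.196) and with no length correction (0.19; limma, adjusted p = 0.324).

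Pdk4, the kinase known for its rise in fasting, was low and uneven at 6.61, 3.24 and 0.394 TPM, from 64, 32 and 4 counts. Replicate 1 was more than 1.5-fold above both others. Pdk4 differed from Pdk1 by -3.27 (SD 2.10; limma, adjusted p = 0.00280), and the adjusted p without pooling was 0.137. The summed oligodendrocyte markers, at 483, 324 and 286 TPM, had the same order of libraries as Pdk4, with 9 of 10 markers at 1 TPM or more in each library and Opalin at 0 counts in replicate 3. The part of such cells in the Pdk4 level was not tested.

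Of the 10 TCA cycle genes, 7 had a mean above 100 TPM. Cs, citrate synthase, which admits acetyl-CoA, stood at 300.0, 235 and 271 TPM in replicates 1, 2 and 3. NAD-linked isocitrate dehydrogenase is built from the catalytic Idh3a and the regulatory Idh3b and Idh3g. Idh3a stood at 115, 148 and 153 TPM, Idh3b at 297, 272 and 268 TPM and Idh3g at 226, 219 and 209.8 TPM.

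Idh3a minus Idh3b came to -1.02 on the log2 scale (SD 0.31; limma, adjusted p = 0.00301), the smallest subunit message being the catalytic one in 3 of 3 libraries. The difference of Idh3a from Idh3g was -0.66 (SD 0.27; limma, adjusted p = 0.0112). It was -0.07 with the longest transcript (limma, adjusted p = 0.696), turned to 0.28 with the coding length and 0.25 with no length correction, both not called, and was not called without pooling (limma, adjusted p = 0.0563). Idh3b was above Idh3g by 0.35 (SD 0.04; limma, adjusted p = 0.0310), a call lost when any 1 library was left out (limma, adjusted p from 0.0627 to 0.164). Their mean shares of the 3 subunits were 21.8% ± 3.34 for Idh3a, 43.9% ± 2.34 for Idh3b and 34.3% ± 1.08 for Idh3g. Idh2, the mitochondrial NADP-linked enzyme, stood far lower at 3.93, 7.42 and 5.62 TPM, and Idh3a exceeded it by 4.63 (SD 0.28; limma, adjusted p = 7.68e-42, and 0.0196 without pooling). This was 5.80 with the coding length.

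Ogdh, the E1 component of the oxoglutarate dehydrogenase complex, stood at 244, 237 and 223 TPM and Dlst, its E2 component, at 51.0, 43.8 and 49.7 TPM. Ogdh exceeded Dlst by 2.29 on the log2 scale (SD 0.14; limma, adjusted p = 4.98e-05), but only by 0.90 with the principal transcript and by 0.29 with the coding length (limma, adjusted p = 0.115). The merged exons of Dlst span 9559 bases and its principal transcript 2764. Ogdhl, a related E1 component of brain, was at 6.18 ± 1.73 TPM, and Ogdh exceeded it by 5.26 (SD 0.35; limma, adjusted p = 1.43e-43, and 0.0160 without pooling).

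Succinyl-CoA ligase pairs Suclg1 with Sucla2, which forms ATP, or with Suclg2, which forms GTP. The shared alpha subunit Suclg1 stood at 20.6, 38.3 and 45.2 TPM in replicates 1, 2 and 3, and Sucla2 at 128, 129 and 117 TPM. Suclg1 was lowest in replicate 1 and Sucla2 varied little. Sucla2 exceeded Suclg1 by 1.91 (SD 0.65; limma, adjusted p = 2.05e-06, and 0.0781 without pooling). This was 1.15 with the principal transcript. The GTP-forming Suclg2 had 2.62 ± 0.784 TPM, below Sucla2 in each library by 5.04 to 6.01, a mean difference of Sucla2 minus Suclg2 of 5.56 (SD 0.49; limma, adjusted p = 4.62e-67, and 0.00922 without pooling). A copy, Gm15163, matches 38.7% of the Suclg2 transcript. Fh1, fumarase, stood at 93.1, 115 and 102.8 TPM.

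In the malate-aspartate shuttle the cytosolic enzymes outweighed the mitochondrial ones. Mdh1, cytosolic malate dehydrogenase, stood at 838, 1505 and 1429 TPM in replicates 1, 2 and 3, and Mdh2, the mitochondrial form, at 320.4, 349.7 and 338 TPM. Got1, cytosolic aspartate aminotransferase, stood at 1344, 1425 and 1198 TPM, and Got2, its mitochondrial partner, at 58.1, 47.7 and 50.2 TPM. Neither cytosolic gene overlapped its mitochondrial partner in any library.

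Mdh1 exceeded Mdh2 by 1.86 on the log2 scale (SD 0.41; limma, adjusted p = 0.000220), with the smallest gap in replicate 1, and by 0.84 with the principal transcript. Got1 exceeded Got2 by 4.67 (SD 0.20; limma, adjusted p = 7.89e-05), against 4.04 with the principal transcript, 3.80 with the coding length and 3.74 with no length correction. The cytosolic shares were 78.1% ± 5.01 for Mdh1 and 96.2% ± 0.494 for Got1. Near-identical copies cover 72.5% of the Got2 principal transcript, which leaves its low level uncertain. Got1 lies on chromosome 19 from 43499752 to 43524605 and Mdh1 on chromosome 11 from 21556787 to 21572367, both on the minus strand.

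Among enzymes of anaplerosis and glutamate, Glul had the highest level, and Pcx was among the lowest of the 44. Glul, glutamine synthetase, which makes glutamine from glutamate, stood at 721, 782 and 690.4 TPM in replicates 1, 2 and 3. Glud1, glutamate dehydrogenase, which links glutamate to the TCA cycle, stood at 338, 347 and 323 TPM. Pcx, pyruvate carboxylase, which refills oxaloacetate and in brain is mainly astrocytic, had 14, 45 and 43 counts, or 1.07, 3.36 and 3.13 TPM.

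Glul exceeded Glud1 by 1.12 on the log2 scale (SD 0.05; limma, adjusted p = 0.000382), with little difference between libraries. Glul and Pcx are textbook astrocyte enzymes. Of the astrocyte markers, the glutamate transporter Slc1a2 stood at 370 ± 43.9 TPM, Slc1a3 at 12.6 ± 0.421 TPM, the water channel Aqp4 at 10.1 ± 2.78 TPM, Gfap at 4.72 ± 1.33 TPM and Aldh1l1 at 3.35 ± 0.716 TPM. The part of astrocyte RNA in the levels of Glul and Pcx was not tested.

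Creatine kinases buffer ATP, and the cytosolic brain form was the higher. Ckb stood at 371, 513 and 531 TPM and the mitochondrial Ckmt1 at 54.7, 86.0 and 111 TPM in the same libraries. Both were lowest in replicate 1, and their libraries did not overlap. Ckb exceeded Ckmt1 by 2.53 (SD 0.26; limma, adjusted p = 2.90e-12, and 0.0249 without pooling), by 1.93 with the longest transcript, and held 85.2% ± 2.29 of their sum.

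**Figure D4:**
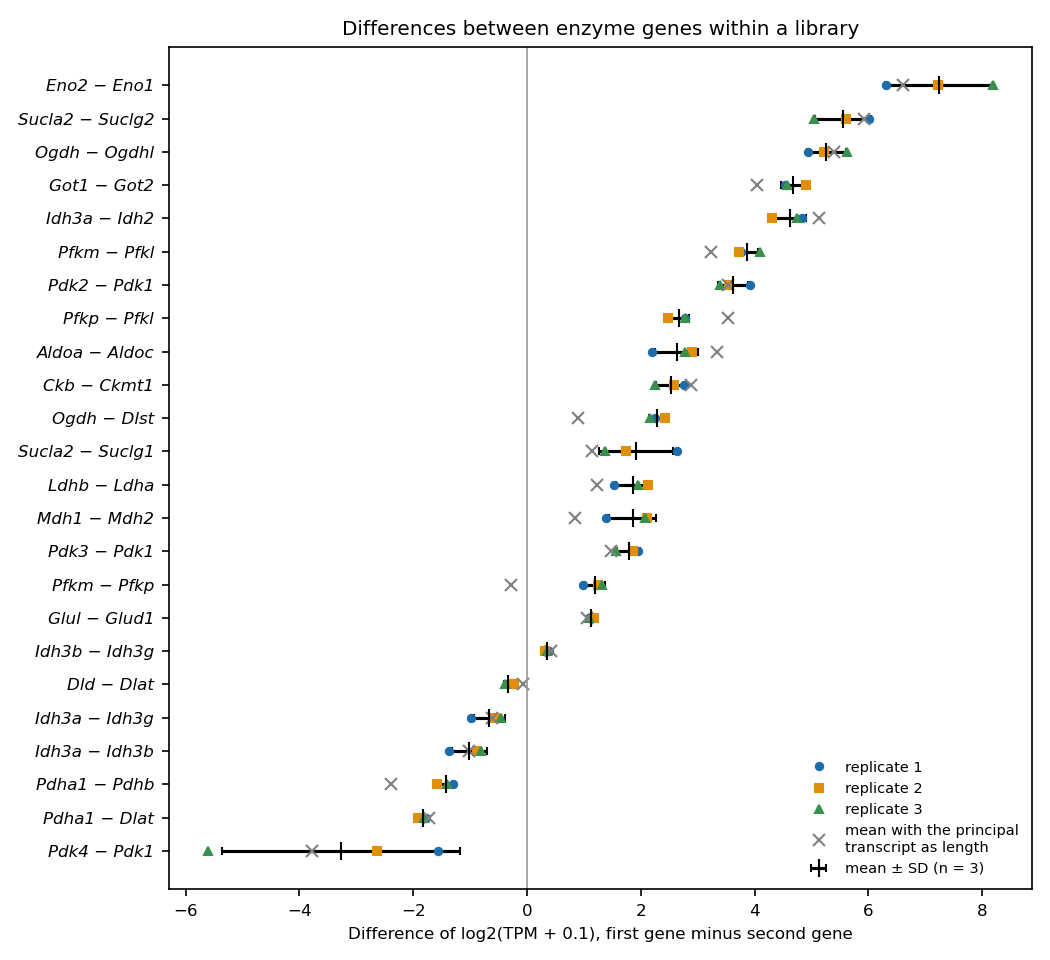
Difference of log2(TPM + 0.1), first gene minus second gene, for the 24 tested pairs in replicates 1, 2 and 3 (points), with mean ± SD (n = 3, bars) and the mean with the principal transcript as length (crosses). The libraries agree in sign for every pair, and for Pfkm minus Pfkp the cross lies on the other side of 0, at -0.29.

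Other genes of these pathways were read from a list of 51, of which 51 were measured, 36 reached 1 TPM and 5 reached 100 TPM in 3 of 3 libraries. The highest were the GABA-making glutamate decarboxylases Gad2 at 2195 ± 111 TPM and Gad1 at 519 ± 39.0 TPM. Among TCA cycle genes, the succinate dehydrogenase subunits Sdha, Sdhd, Sdhb and Sdhc stood at 365 ± 50.7, 189 ± 80.5, 115 ± 17.8 and 112 ± 43.0 TPM. The asparagine synthetase Asns stood at 180.2 ± 24.2 TPM and Aldh5a1, which oxidises a breakdown product of GABA, at 169.7 ± 7.19 TPM. The top 10 ended with Pdp1, a phosphatase that reactivates pyruvate dehydrogenase, at 95.7 ± 9.39 TPM and Bpgm, bisphosphoglycerate mutase, at 92.7 ± 40.7 TPM. No count was found in any library for Hk3, Pgk2, Ldhc, Pdha2, Pck1 and Ckmt2, which allows at most 0.215 CPM each in a library. These are isozymes of blood cells, testis, liver or kidney, and muscle.

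Libraries differed for most of the enzymes by more than counting error, as for most genes. The 3 counts of each gene were set against TMM-scaled library sizes (a trimmed mean that corrects for composition), and a chi-square test called 37 of 43 enzymes tested (86.0%, Benjamini-Hochberg over all genes), beside 74.2% of all 12949 genes tested. The 6 not called were Pfkl, Pfkp, Pgam1, Ldha, Pdha1 and Pdk3. Such a test calls well-counted genes more often, and among genes with at least 100 CPM it called 24 of 26 enzymes and 93.1% of all. Without replicate 1, it called 20 enzymes and 42.6% of all genes. The calls were 32 and 62.1% without replicate 2, and 30 and 54.5% without replicate 3. Against a negative binomial with the trended dispersion of edgeR, 0 enzymes and 16 of all genes were called. An unadjusted p below 0.05 was found for 3 of 43 enzymes and for 718 of all 12949 genes.

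The enzymes' spread was small in size. Their median coefficient of variation in TPM was 10.5%, against 17.5% for all genes at a mean of 1 CPM or more. The median biological coefficient of variation by edgeR was 0.152 for the 43 enzymes, against 0.224 for all genes tested and 0.145 for genes with at least 100 CPM, so it lay near that of other well-counted genes. Ldha varied by 2.95% over the libraries, Pdha1 by 2.11% and Pfkp by 3.10%. At the other end were Hk2 with 106%, Pdk4 with 91.2% and Pcx with 50.1%, each from low counts, and then Eno1 with 37.8%, Suclg1 with 36.6% and Tpi1 with 36.2%.

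In replicate 1, 5 of 43 enzymes (11.6%) were at least 1.5-fold below both other libraries, namely Tpi1, Suclg1, Mdh1, Pcx and Ckmt1, beside 13.7% of all 12455 genes examined. Only Pdk4 was at least 1.5-fold above both (2.33% of the enzymes), beside 3.37% of all genes. The enzymes' shares lay near those of all genes in both directions. The same rule was not applied to replicates 2 and 3. With CPM on TMM library sizes the same 5 genes were found, and with a 2-fold limit only Pcx.

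**Figure D5:**
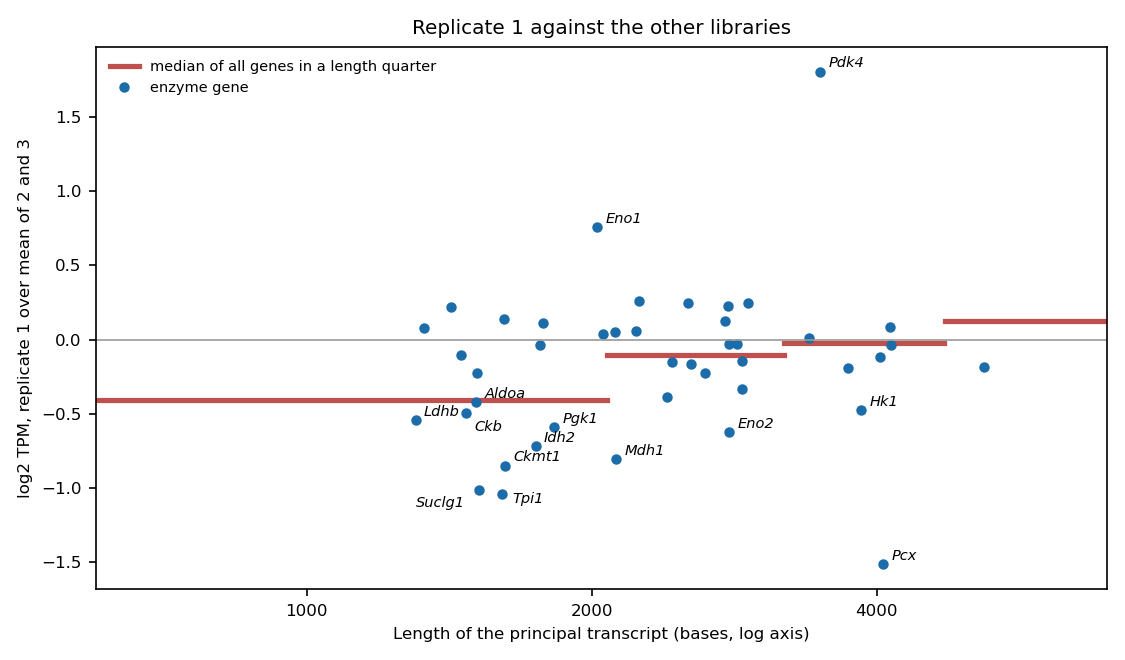
Log2 TPM of replicate 1 over the mean of replicates 2 and 3 for the 43 tested enzyme genes (points) against the length of the principal transcript (log axis), with the median of all genes in each of 4 length classes (red lines). The red lines run from -0.41 for the shortest class to 0.13 for the longest. In the shortest class, Tpi1, Suclg1, Ckmt1, Idh2, Pgk1, Ldhb, Ckb and Aldoa lie below its line.

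The level of a gene in replicate 1 moved with transcript length. Over all genes the median log2 of replicate 1 over the mean of the others was -0.41 for principal transcripts of at most 2074 bases, -0.10 and -0.02 in the next classes and 0.13 for those of at least 4717 bases. The enzymes had medians of -0.23 (17 genes), -0.03 (17 genes), -0.08 (8 genes) and -0.19 (1 gene) from the shortest class to the longest. Over the 43 enzymes the median was -0.12, against -0.06 for all genes. Tpi1, Suclg1 and Ckmt1 have principal transcripts of 1607, 1519 and 1620 bases, whereas those of Mdh1 and Pcx have 2122 and 4061 bases. The part of transcript length in these differences was not tested, and a trend with length was not examined for replicate 2 or replicate 3.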

How the data were processed

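Ribosome-bound RNA of 3 immunopurified libraries was analysed as 1 group, assigned from the labels. The deposited files hold raw counts per gene symbol, not normalized. Per the submitters' processing notes, STAR 2.0.0e, HTSeq and the build mm10 were involved, and their roles are not stated there. Which annotation, counting mode and strand setting were used is not given in the sources used here. Overlapping and antisense genes therefore cannot be told apart. Of all records, 11.0% to 13.1% fell on no feature, 2.49% to 2.83% were ambiguous and 11.2% to 13.1% had no unique alignment. These lines and a line named "unknown" stayed out of library sizes.

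TPM was computed here from the deposited counts and merged exon lengths of GENCODE M21 (GRCm38, the assembly mm10 denotes). A length was found for 23155 of 32531 symbols directly and for 735 through an older name, and 8641 stayed without. The genes with lengths took 94.6% to 97.1% of the counts. Comparisons between genes used log2(TPM + 0.1), which understates differences of genes near 0. With 1 group, no test between groups exists. Of 25 gene pairs, 24 could be tested with limma 3.58.1, 1 fit across 12455 genes per partner gene. Variation between libraries used a chi-square test on 12949 genes with edgeR 4.0.16 scaling, and DESeq2 1.42.0 size factors as an alternative. Near-identical copies were found with BLAST 2.17.0 and overlaps with bedtools 2.31.1. Scripts ran in Python 3.11.15 with NumPy 2.4.6, pandas 2.3.3 and matplotlib 3.10.9, and in R 4.3.3. The chi-square and pair tests were tested on simulated data.

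The enzymes, the other pathway genes, the markers and the pairs were chosen with earlier results of these data known. All 44 enzymes are named. Of other pathway genes, those in a pair, the 10 highest, those with 0 counts, and Eno3 and Eno4 are named. A few further genes and pairs are not reported here and enter no count of pairs or pathway genes. Alternatives covered gene length, pseudocount, filters, scaling, the pooled spread and each library left out. Limits from a count of 0 cover counting error only.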

Additional observations from a re-analysis of the deposited data

How the results depend on the processing

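The median level of the 44 enzymes was 190.0 TPM with merged exons, 219.9 TPM with the longest transcript and 129 TPM with the coding length, and 184 to 201 TPM with any 1 library left out. Of 24 pairs, 23 were called, and 19 to 23 under the alternatives, the 19 being of 19 tested at a minimum of 10 CPM. Leaving out each library gave 22, beside 82.5% to 89.6% of all comparisons of a gene with these partner genes. Without pairs that hold a gene with near-identical copies, an alternative chosen after seeing the data, 19 of 20 were called. Directions turned for Pfkm minus Pfkp (-0.29 with the principal transcript, -0.80 with the coding length, -0.81 with no length correction) and Idh3a minus Idh3g (0.28 with the coding length, 0.25 with no length correction). Length is the only thing changed in these settings. No other pair reversed under the alternatives run. Of the alternatives for family shares, 48 moved the mean by its SD over libraries or more, and 96 did not. For the levels of single enzymes these numbers were 90 and 218.

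The 37 enzymes that varied between libraries became 24 at a minimum of 100 CPM, where 26 were tested, 0 with the negative binomial, and 20 to 32 with 1 library left out. DESeq2 size factors and library totals each gave 37, and no filter gave 38. Depth limits Hk2, with at most 25 counts in a library, and Pdk4, Idh2, Pcx and Eno1, with at most 65.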
